A study of Mus musculus with 6 samples.

Results

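The genes described here are 39 genes of sphingolipid and long-chain fatty acid metabolism, taken by symbol from the 24411 genes with a value in every library. They cover ceramide synthesis (11 genes), the head groups and 2-hydroxylation of ceramide (6), breakdown (5), fatty acid elongation (7), fatty acid synthesis (3), desaturation (5) and acyl-CoA ligation (2). They were measured in mouse brain with RiboTag, in which 1 ribosomal protein allele (Rpl22HA/+) carries an HA tag after Cre recombination, so that an HA antibody pulls down the ribosomes of the recombined cells with the mRNA on them (the IP). Control mice were NG2CreERTM;Rpl22HA/+. The mutants, called AnkG icKO, carried Ank3F/F as well, so that Cre also disrupts Ank3, the gene of the scaffold protein ankyrin-G. Both genotypes therefore carried the tamoxifen-dependent NG2 Cre and the tagged allele, and both were given tamoxifen at 8 weeks of age (100 mg/kg a day for 5 days, intraperitoneal) and analysed 1 month later. Each library pooled the whole brains of 3 animals, and 10% of the cleared homogenate was kept as the input, the RNA of all brain cells. The data hold 2 control IP and 2 icKO IP libraries, titled biological replicates, and 1 input library of each genotype, and the comparison asks how the messages on oligodendrocyte ribosomes differ without ankyrin-G. NG2 is made by oligodendrocyte precursors and also by pericytes, so the driver is not limited to oligodendrocytes. For icKO IP replicate 1 the genotype label is AnkG icKO, although its title has cKO.

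Myelin is the lipid-rich membrane that oligodendrocytes wrap around axons, and its characteristic lipids are galactosylceramide and its sulfated form, sulfatide. Ceramide is built in the endoplasmic reticulum from serine and palmitoyl-CoA, receives a very long acyl chain from a ceramide synthase, and is then galactosylated, glucosylated or turned into sphingomyelin. Elongases lengthen the acyl chains by cycles of condensation, reduction and dehydration, desaturases add double bonds, and lysosomal enzymes take the finished lipids apart again.

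The 6 libraries held 18968806 to 23930812 counts. Levels are given as CPM, counts scaled to library size with TMM factors, in which 3 counts correspond to 0.125 to 0.158 CPM. The 39 genes together took 0.723% and 0.724% of the counts in control IP, 0.527% and 0.522% in icKO IP, 0.437% in the control input and 0.467% in the icKO input (95% Wilson intervals of at most 0.00364 percentage points to either side, counting error only). Ank3 itself stood at 1386 and 1356 CPM in control IP, 1163 and 1165 CPM in icKO IP, and 382 and 347 CPM in the control and icKO inputs, for counts taken over the whole gene rather than its deleted part. The 8 mature oligodendrocyte markers summed to 22553 and 22747 CPM in control IP, 14257 and 14196 CPM in icKO IP, and 2994 and 2977 CPM in the inputs, and 8 of 8 were lower in icKO IP (median log2 difference -0.75). The 7 oligodendrocyte precursor markers summed to 7148 and 7209 CPM in control IP and 6135 and 6229 CPM in icKO IP (5 lower, 1 higher), and the 5 pericyte markers to 1520 to 1521 CPM and 772 to 791 CPM (5 of 5 lower, median -0.98). The part of pericyte RNA in the results was not tested. The 8 neuron markers summed to 1251 to 1358 CPM over the 4 IP libraries against 6951 and 7134 CPM in the inputs. In icKO IP 4 of 8 neuron markers rose and 1 fell (median 0.08), and 4 of 6 astrocyte markers rose and 0 fell (median 0.17). Of 4 endothelial markers 2 fell and 0 rose (median -0.56), and of 6 microglia markers 1 fell and 1 rose (median 0.01). All these marker counts are calls at an adjusted p under 0.05 in the IP comparison given below, in which 25.2% of all genes fell and 22.1% rose. The labels give oligodendrocytes as the cell type of all libraries, inputs included, and no marker of any of the 7 cell types checked was at 0 in every library.

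On the tagged ribosomes of icKO brains, the messages of all 7 elongation genes, of 4 of 5 desaturation genes and of the 3 galactolipid genes Ugt8a, Gal3st1 and Fa2h were lower than in control brains. Of the 38 genes tested, 22 fell and 3 rose (quasi-likelihood F test in edgeR, Benjamini-Hochberg adjusted p under 0.05 over 15069 genes). Over all genes tested, 25.2% fell and 22.1% rose, 47.2% in either direction. The median log2 difference, icKO IP minus control IP, was -0.23 over the 38 genes and 0.0033 over all genes tested. The largest falls were those of Fa2h (-0.85), Scd1 (-0.81), Sptssa (-0.79), Degs1 (-0.67) and Scd2 (-0.57), and the 3 that rose were Cers6 (0.38), Acsl6 (0.20) and Cers4 (0.20). In 29 of the 38 genes the 2 control IP values did not overlap the 2 icKO IP values, a share near the 72% of all genes tested. Of the 29, 26 had icKO lower, and the share in that direction over all genes was not counted. In bulk RNA such as this, fewer cells of a type and less RNA per cell cannot be told apart. Scaling the IP libraries to 25 myelin and mature oligodendrocyte genes in place of all genes adds 0.67 to the median of all genes. It shifts every gene by nearly the same amount, so a gene's place relative to that median is not a separate result. On that scale 2 of the 38 genes were lower (Fa2h -0.18 and Scd1 -0.14) and 30 higher. Of all 15069 genes tested, 125 were lower and 12573 higher. The median of the 38 was 0.43, against 0.67 over all genes.

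**Figure D1:**
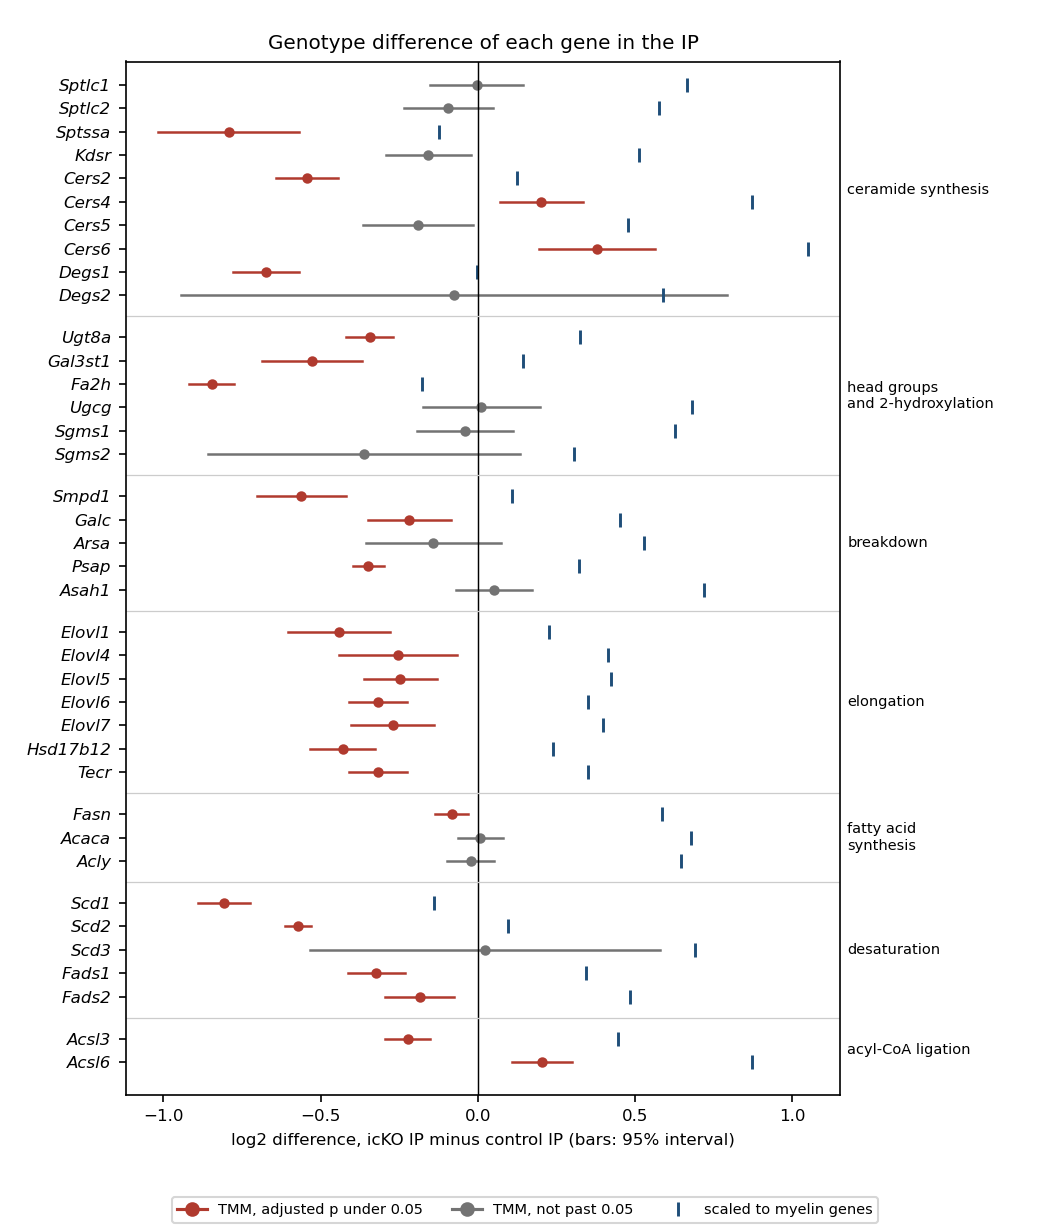
Genotype difference of each gene on the tagged ribosomes, as log2 of icKO IP over control IP (2 libraries each), with bars for 95% intervals, red where the adjusted p is under 0.05 and grey otherwise, and blue ticks for the value scaled to myelin genes. Most points sit left of 0, with Fa2h (-0.85) and Scd1 (-0.81) farthest, and Cers6 (0.38) sits farthest right.

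Among the genes of ceramide synthesis, 3 of 10 tested fell (Sptssa, Cers2 and Degs1) and 2 rose (Cers4 and Cers6), shares near the 25.2% and 22.1% of all genes. Sptssa, a small subunit that activates serine palmitoyltransferase, stood at 20.1 and 21.1 CPM in the control IP libraries, 12.5 and 11.3 CPM in the icKO IP libraries, and in the inputs 11.5 CPM for control and 10.9 CPM for icKO. Both icKO IP values lay below both control IP values and near the inputs, and the difference was -0.79 ± 0.11 SE, adjusted p = 3.74e-07. Sptlc1 and Sptlc2, the large subunits of the same enzyme, had differences of -0.0037 (95% interval -0.15 to 0.15) and -0.09 (-0.23 to 0.05) and did not pass the test. Sptlc2 was called lower with library totals (-0.18, adjusted p = 0.0306) and with a transcript length offset (-0.19, adjusted p = 0.0237). Degs1, the desaturase that turns dihydroceramide into ceramide (chr1:182275772-182282804, minus strand, mm10), stood at 97.4 and 95.5 CPM in control IP, 61.0 and 59.9 CPM in icKO IP, and 35.9 and 37.7 CPM in the control and icKO inputs. The icKO IP libraries held 62.8% of the control IP level, with no overlap between the groups and a difference of -0.67 ± 0.05 SE, adjusted p = 1.10e-12. Its count divided by that of Sptlc2 in the same library was 2.29 in each control IP library, 1.51 and 1.57 in icKO IP, and 1.48 and 1.55 in the inputs. Kdsr, the reductase that follows serine palmitoyltransferase, had a difference of -0.16 (adjusted p = 0.0518). It was called lower with library totals (-0.24, adjusted p = 0.0029), without a filter (0.0398), with scaling to other cell types' markers (0.0125) and with the length offset added after seeing the data (0.00231). Degs2, a relative of Degs1 with hydroxylase activity, was at 0.866 to 2.09 CPM in all libraries and had a difference of -0.07 (95% interval -0.94 to 0.79).

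The ceramide synthases, which each attach acyl chains of a preferred length, moved in different directions. Cers2, the synthase for very long chains (chr3:95314791-95323599, plus strand), stood at 132 and 144 CPM in control IP, 98.6 and 90.6 CPM in icKO IP, and 24.1 and 24.4 CPM in the control and icKO inputs. The 2 icKO IP values were the lower ones without overlap (-0.54 ± 0.05 SE, adjusted p = 2.82e-11). Cers6, a synthase for shorter chains, stood at 20.3 and 22.7 CPM in control IP, 28.6 and 27.5 CPM in icKO IP, and 36.6 and 32.0 CPM in the control and icKO inputs. Here both icKO IP values were above both control IP values and below both inputs (0.38 ± 0.09 SE, adjusted p = 7.74e-04). The count ratio of Cers6 to Cers2 within a library, which does not depend on scaling, was 0.154 and 0.158 in control IP, 0.290 and 0.303 in icKO IP, 1.52 in the control input and 1.31 in the icKO input. Cers4, another synthase for long chains, rose by 0.20 (adjusted p = 0.0108). Its call was lost with library totals as scale (adjusted p = 0.145), with scaling to other cell types' markers (0.0734) and with DESeq2 (0.0597). It was also lost without control IP replicate 2 (difference 0.11) and without icKO IP replicate 2 (difference 0.15). Cers5, the synthase for palmitoyl chains, had a difference of -0.19 (adjusted p = 0.0683) and was called lower without icKO IP replicate 1 (-0.32, adjusted p = 0.00754), with library totals (-0.28, 0.00826), without a filter (0.0441), with the other cell types' scale (0.0176) and with the replicate block (0.0474). Cers1, the synthase for stearoyl chains in neurons, had no count in any library, as did Gdf1, whose exons share bases with it on the same strand, so its level cannot be read here.

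Per kb of exon, Cers2 made up 70.2% and 72.0% of the 4 counted synthases in control IP, 62.6% and 62.3% in icKO IP, and 34.1% and 36.3% in the control and icKO inputs. The share of Cers6 was 4.47% and 4.72% in control IP, 7.53% and 7.82% in icKO IP, and 21.5% and 19.7% in the inputs. Neither group's shares overlapped the other's in the IP, and both icKO IP libraries lay between control IP and the inputs.

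**Figure D2:**
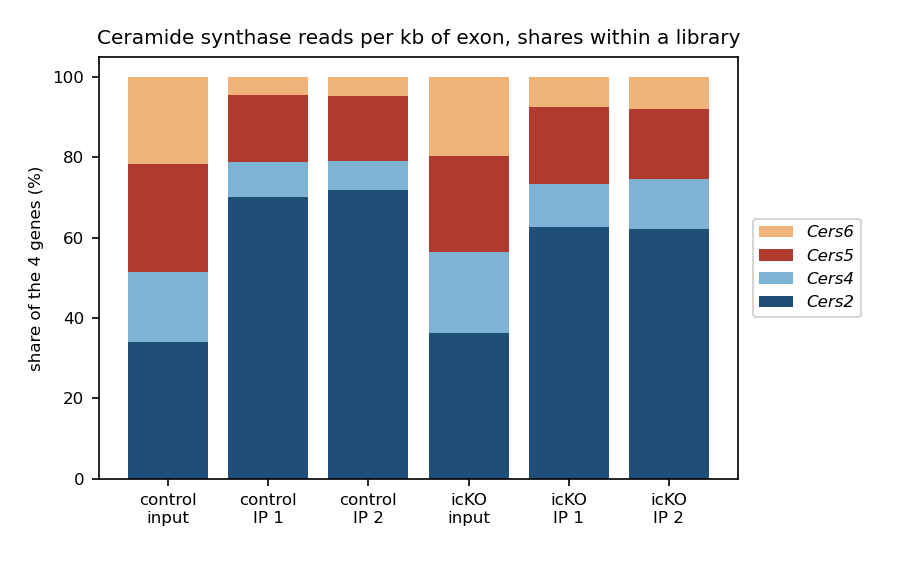
Share of each of the 4 counted ceramide synthases in their summed CPM per kb of exon, in percent, with 1 stacked bar per library. Cers2 takes 70.2% and 72.0% in the control IP bars, 62.6% and 62.3% in the icKO IP bars and 34.1% and 36.3% in the inputs.

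The 3 genes that make galactosylceramide and sulfatide with 2-hydroxylated chains all fell, and the 3 that lead to glucosylceramide and sphingomyelin did not pass the test. Over all genes tested, 25.2% fell. Scaled to myelin genes, Fa2h stayed lower (-0.18) while Ugt8a turned to higher (0.32) and Gal3st1 had a value of 0.14 that did not pass the test (adjusted p = 0.0938). The median over all genes was 0.67 on that scale. Ugt8a, the transferase that adds galactose to ceramide (chr3:125865271-125938619, minus strand), stood at 322 and 312 CPM in control IP, 262 and 236 CPM in icKO IP, and 38.8 and 38.8 CPM in the control and icKO inputs. Its IP values were all far above the inputs, with icKO below control (-0.34 ± 0.04 SE, adjusted p = 1.31e-09). Gal3st1, the sulfotransferase that turns galactosylceramide into sulfatide (chr11:3983636-3999326, plus strand), stood at 42.2 and 38.3 CPM in control IP, 27.0 and 28.9 CPM in icKO IP, and 7.06 and 7.40 CPM in the control and icKO inputs. The groups did not overlap, and the difference was -0.53 ± 0.08 SE, adjusted p = 1.14e-06. Fa2h, the fatty acid 2-hydroxylase whose products go into myelin galactolipids (chr8:111345135-111393824, minus strand), stood at 248 and 253 CPM in control IP, 140.0 and 138 CPM in icKO IP, and 32.9 and 31.2 CPM in the control and icKO inputs. The icKO IP libraries held 55.6% of the control level, the largest fall of the 38 genes (-0.85 ± 0.04 SE, adjusted p = 1.14e-19). The count ratio of Fa2h to Ugt8a was 0.770 and 0.809 in control IP and 0.534 and 0.584 in icKO IP, against 0.846 and 0.804 in the inputs. That of Gal3st1 to Ugt8a was 0.131 and 0.123 in control IP and 0.103 and 0.122 in icKO IP. The inputs had 0.182 and 0.191 for this pair. Ratios of further gene pairs were also taken and are not all given here. Ugcg, the glucosylceramide synthase, and Sgms1, a sphingomyelin synthase, had differences of 0.01 (95% interval -0.18 to 0.20) and -0.04 (-0.19 to 0.11). With the length offset Sgms1 was called lower (-0.18, adjusted p = 0.0471). Sgms2, the other sphingomyelin synthase, stood at 3.10 and 4.41 CPM in control IP, 2.57 and 3.31 CPM in icKO IP, and 2.28 and 2.77 CPM in the control and icKO inputs. These low values overlapped between the groups, and the difference of -0.36 (95% interval -0.86 to 0.14, adjusted p = 0.231) did not pass the test.

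RefSeq promoter windows of build GRCm38.p6 were found for 34 of the 39 genes, and the 5 without an entry were Asah1, Fads1, Scd2, Scd1 and Fa2h. The 200 bases before the start site are printed 5′ to 3′ in the sense of the gene for Ugt8a and Gal3st1, which fell together, and for Fasn, which moved least among the genes called, with CCAAT or its reverse complement ATTGG in capitals.
Ugt8a (chr3:125938653-125938852, minus strand): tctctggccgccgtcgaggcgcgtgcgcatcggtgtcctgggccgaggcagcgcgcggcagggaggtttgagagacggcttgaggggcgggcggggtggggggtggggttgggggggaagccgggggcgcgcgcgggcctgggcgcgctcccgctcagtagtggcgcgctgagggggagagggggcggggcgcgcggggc
Gal3st1 (chr11:3983436-3983635, plus strand): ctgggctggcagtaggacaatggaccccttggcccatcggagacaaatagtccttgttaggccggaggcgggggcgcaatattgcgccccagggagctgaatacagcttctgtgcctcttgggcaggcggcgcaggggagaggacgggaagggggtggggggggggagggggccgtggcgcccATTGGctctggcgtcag
Fasn (chr11:120824548-120824747, minus strand): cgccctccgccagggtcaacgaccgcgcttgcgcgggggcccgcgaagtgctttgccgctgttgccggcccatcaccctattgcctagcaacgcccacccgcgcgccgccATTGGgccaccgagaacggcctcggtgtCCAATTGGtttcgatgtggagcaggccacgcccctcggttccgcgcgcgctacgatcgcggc
In the Ugt8a stretch there are no capitals, whereas that of Gal3st1 holds a single ATTGG 17 bases before the start and Fasn holds hits at 90, 62 and 59 bases, the last 2 of which share bases. For 250-base windows and both strands, a gene was counted where any of its windows held the motif. CCAAT, the NF-Y motif, lay in 16 of 34 genes (47.1%, against 37.5% of 27025 genes). CACGTG, an E-box, lay in 6 of 34 (17.6%, against 6.86%), and TCACNCCAC, a sterol response motif, in 0 of 34 (against 1.22%). These matches describe the letters in the windows and nothing about factor binding.

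Of the 5 breakdown genes, 3 fell (Smpd1, Psap and Galc), against 25.2% of all genes tested. Smpd1, the lysosomal acid sphingomyelinase, stood at 55.5 and 58.0 CPM in control IP, 35.6 and 41.4 CPM in icKO IP, and 77.5 and 76.8 CPM in the control and icKO inputs. It was higher in whole brain than on the tagged ribosomes, and the icKO IP values were lowest of all (-0.56 ± 0.07 SE, adjusted p = 4.12e-08). Psap, the precursor of the saposins that present sphingolipids to lysosomal enzymes, stood at 856 and 864 CPM in control IP, 679 and 671 CPM in icKO IP, and 1101 and 1084 CPM in the control and icKO inputs. The groups did not overlap, and the difference was -0.35 ± 0.02 SE, adjusted p = 8.41e-14. Galc, the galactosylceramidase lost in Krabbe disease, fell by 0.22 on the log2 scale (adjusted p = 0.00578, and 0.0646 without control IP replicate 1). Arsa, the sulfatide-degrading arylsulfatase, and Asah1, the acid ceramidase, had differences of -0.14 (95% interval -0.36 to 0.07) and 0.05 (-0.07 to 0.17). A part of the Arsa exons (18.8%) overlaps a gene on the opposite strand, as do 10.8% of Degs2, 8.97% of Cers4 and 5.96% of Cers2, and no source used here gives whether the counting used strand. Their values, and those of Acsl3 and Sptssa, which share 5.6% and 5.27% of their exons with a gene on the same strand, are uncertain to that extent.

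All 7 elongation genes tested fell, by 0.25 to 0.44 on the log2 scale, against 25.2% of all genes tested. On the myelin scale, which shifts all genes nearly alike, all 7 had values of 0.23 to 0.42 (median over all genes 0.67). Elovl1, the elongase for saturated very long chains, stood at 36.5 and 34.4 CPM in control IP, 26.1 and 26.0 CPM in icKO IP, and 6.56 and 6.23 CPM in the control and icKO inputs. The 4 IP values were all far above the inputs, and icKO lay below control without overlap (-0.44 ± 0.08 SE, adjusted p = 2.36e-05). Elovl6, which lengthens palmitate to stearate, stood at 112 and 111 CPM in control IP, 88.6 and 90.0 CPM in icKO IP, and 43.0 and 53.5 CPM in the control and icKO inputs. Hsd17b12, the ketoacyl reductase of the elongation cycle, stood at 91.6 and 93.5 CPM in control IP, 69.7 and 67.6 CPM in icKO IP, and 50.4 and 54.0 CPM in the control and icKO inputs. Both showed the same order, control IP above icKO IP above the inputs, with differences of -0.32 ± 0.05 SE, adjusted p = 6.32e-07, and -0.43 ± 0.05 SE, adjusted p = 1.69e-08, respectively. Tecr, the enoyl reductase that ends the cycle, stood at 113 and 116 CPM in control IP, 90.6 and 92.6 CPM in icKO IP, and 135 and 141 CPM in the control and icKO inputs. In this gene the inputs were the highest libraries and icKO IP the lowest (-0.32 ± 0.05 SE, adjusted p = 6.15e-07). Elovl7, an elongase for saturated chains, and Elovl5, one for polyunsaturated chains, fell by 0.27 (adjusted p = 8.85e-04) and 0.25 (6.65e-04). Elovl4, which makes the longest chains, fell by 0.25 as well (adjusted p = 0.0232). That call was lost with DESeq2 (adjusted p = 0.12) and with the transcript length offset (-0.21, adjusted p = 0.0685). It was also lost without control IP replicate 2 (difference -0.13) and without icKO IP replicate 1 (difference -0.17).

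In desaturation 4 of 5 genes fell, and in fatty acid synthesis 1 of 3, a share near the 25.2% of all genes tested. Scaled to myelin genes, Scd1 stayed lower (-0.14) and Scd2 (0.097), Fads1 (0.35), Fads2 (0.48) and Fasn (0.59) turned sign. The median over all genes was 0.67 on that scale, which shifts all genes nearly alike. Scd2, the main stearoyl-CoA desaturase of brain (chr19:44293674-44306864, plus strand), stood at 2734 and 2712 CPM in the control IP libraries, 1845 and 1815 CPM in the icKO IP libraries, and in the inputs 866 CPM for control and 955 CPM for icKO. It was the highest of the 39 genes in IP per kb of exon and took 38.3% and 37.9% of their counts in control IP, 33.4% and 33.2% in icKO IP, and 20.6% and 21.1% in the inputs (Wilson intervals of at most 0.293 points to either side). The groups did not overlap (-0.57 ± 0.02 SE, adjusted p = 1.50e-21). Scd1, its neighbour on the same chromosome (chr19:44394455-44407879, minus strand), stood at 178 and 172 CPM in control IP, 101 and 98.8 CPM in icKO IP, and 131 and 183 CPM in the control and icKO inputs. The icKO IP libraries had the lowest Scd1 values and the icKO input the highest (-0.81 ± 0.04 SE, adjusted p = 2.32e-17). Fads1, the delta-5 desaturase of polyunsaturated chains, stood at 121 and 128 CPM in control IP, 99.5 and 99.1 CPM in icKO IP, and 122 and 133 CPM in the control and icKO inputs. Control IP and the inputs lay close together and icKO IP below them (-0.32 ± 0.04 SE, adjusted p = 3.19e-07). Fads2, the delta-6 desaturase, fell by 0.18 (adjusted p = 0.00536, and 0.0577 without control IP replicate 2). Scd3, which is more typical of skin, was at 2.14 to 3.01 CPM in the IP libraries and had a difference of 0.02 (95% interval -0.53 to 0.58). The Scd genes are close copies of each other, so reads could be divided between them by the counting, and their single values are uncertain to that extent.

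Fasn, the fatty acid synthase (chr11:120805846-120824547, minus strand), stood at 613 and 637 CPM in control IP, 588 and 591 CPM in icKO IP, and 300.5 and 378 CPM in the control and icKO inputs. The icKO IP values lay just below the control ones (-0.08 ± 0.03 SE, adjusted p = 0.00939). This call was lost among genes of at least 5 CPM (-0.05, adjusted p = 0.0863) and without control IP replicate 2 (difference -0.06). Acaca, which makes malonyl-CoA, and Acly, which makes cytosolic acetyl-CoA, had differences of 0.0085 (95% interval -0.06 to 0.08) and -0.02 (-0.10 to 0.05). Of these 3 genes only Fasn passed the test. Acly was called lower with library totals (-0.11, adjusted p = 0.0157). Acsl3, an acyl-CoA synthetase of the endoplasmic reticulum and lipid droplets, stood at 229 and 228 CPM in control IP, 201 and 189 CPM in icKO IP, and 164 and 171 CPM in the control and icKO inputs. It fell (-0.22 ± 0.04 SE, adjusted p = 3.11e-06), with no overlap. Acsl6, the brain synthetase that activates docosahexaenoic acid, was lower in IP (93.0 to 113 CPM) than in the inputs (219 and 237 CPM) and rose in icKO IP (0.20 ± 0.05 SE, adjusted p = 5.61e-04). Acsl6 and Cers6, both lower in IP than in input, rose alongside neuron and astrocyte markers, whose part in these values was not tested. An offset for transcript length was chosen after seeing the data. With it the calls of Acsl6 (0.07, adjusted p = 0.222), Cers4 (0.03, 0.704) and Elovl4 (-0.21, 0.0685) were lost. Acaca, a long transcript, was called lower there (-0.22, adjusted p = 1.92e-05).

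Compared per kb of exon, the levels in control IP spanned a wide range. Scd2 was highest with 498 CPM per kb, followed by Psap (313), Fa2h (83.2), Ugt8a (69.9), Fasn (57.1), Acsl3 (52.4) and Tecr (52.2). In icKO IP the first genes in order were different after the second: Scd2 (335) and Psap (246) were followed by Ugt8a (55.0), Fasn (53.9) and Fa2h (46.2). Psap was the highest gene in both inputs (401 and 395 CPM per kb), above Scd2 (158 and 175). Below 1 CPM per kb in control IP were Scd3 (0.726), Sgms2 (0.603), Degs2 (0.426) and Cers1 (0).

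**Figure D3:**
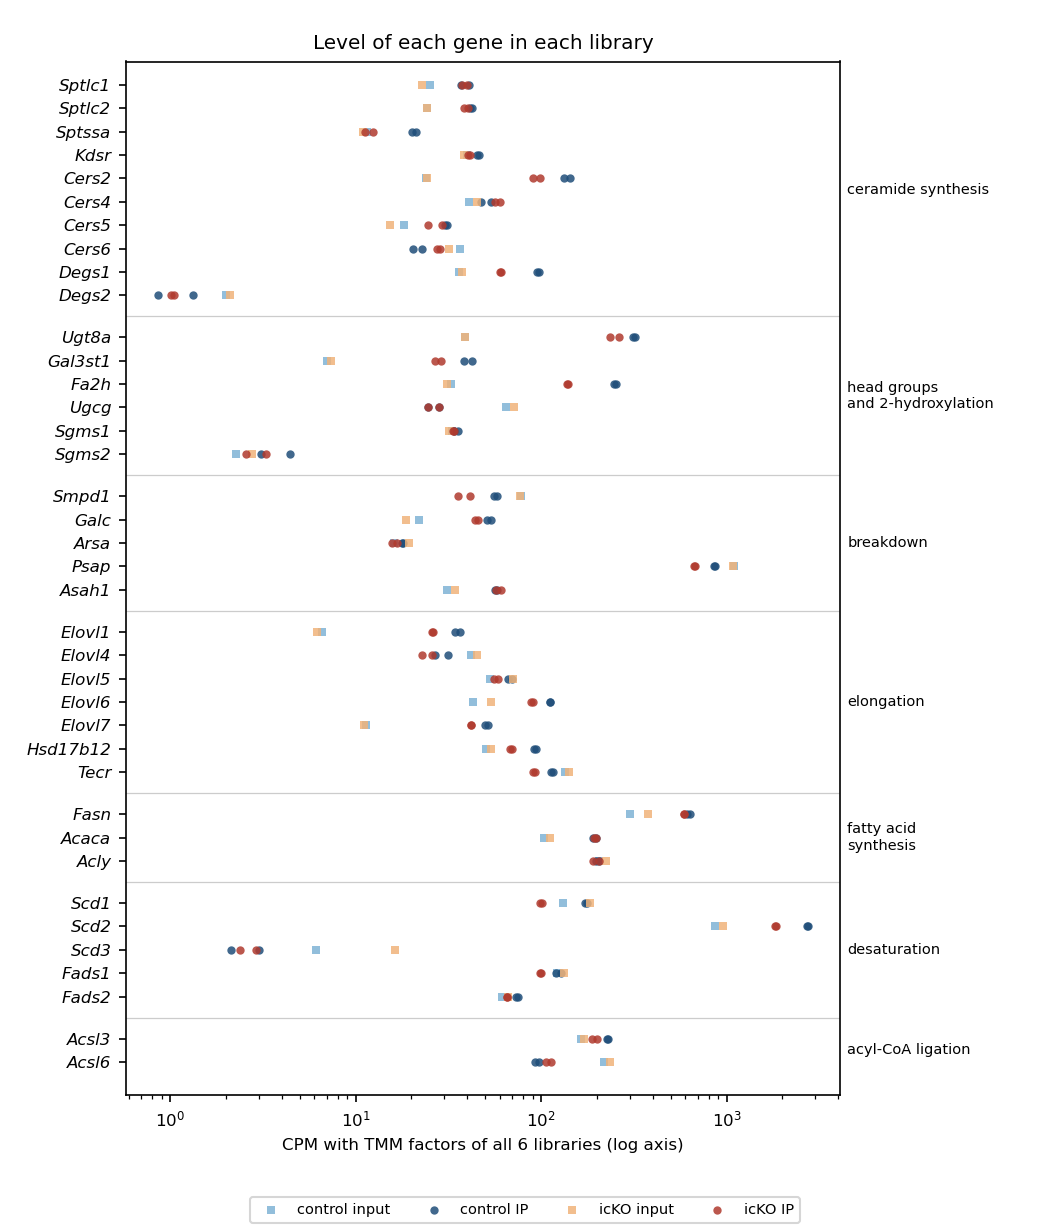
Level of each of the 38 genes with counts in each of the 6 libraries, in CPM on a log axis, with 1 symbol per library and the genes ordered by step. Scd2 (2734 and 2712 CPM in control IP) and Psap (1101 CPM in the control input) stand highest, and for Fa2h and Ugt8a the 4 IP symbols lie far to the right of the inputs.

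The comparison of IP with input shows which of these messages the tagged ribosomes carried above whole brain. With genotype in the model, 20 of the 38 genes were higher in IP and 9 lower (the same edgeR test, adjusted over 15451 genes), against 34.8% and 35.1% of all genes tested (70% in either direction). The median log2 difference was 0.37, against 0.01 over all genes. Leaving out the only input of a genotype leaves the value to the other genotype alone. Without the control input the median was thus 0.16, as within icKO (0.16). Without the icKO input it was 0.56, as within control (0.56). The values without an input therefore show the genotype difference as well as any effect of an input library. Within control, 25 genes were higher and 8 lower (35.1% and 35% of all genes, 70.1% together), and within icKO 19 were higher and 12 lower (35.5% and 35.7%, 71.2% together). Each genotype has a single input, which is taken to vary like the IP pairs.

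In control, Ugt8a (3.03), Fa2h (2.93), Cers2 (2.52), Gal3st1 (2.51), Elovl1 (2.43) and Elovl7 (2.15) had the largest log2 differences of IP over input. The galactolipid genes, the very long chain synthase and the elongase genes Elovl1 and Elovl7 thus stood at the top, while Elovl6 had 1.37. In icKO these 6 genes had differences of 2.68, 2.16, 1.95, 1.91, 2.06 and 1.92, in that order. At the other end in control stood Ugcg (-1.30), Scd3 (-1.24), Acsl6 (-1.20), Degs2 (-0.88, adjusted p = 0.0741) and Cers6 (-0.76). Of these, Degs2 did not pass the test in control. The first enzyme of glucosylceramide synthesis was therefore lower on the tagged ribosomes than in whole brain, in both genotypes (-1.43 in icKO), while that of galactosylceramide synthesis was higher. Scd1 and Elovl5 were higher in IP than in input in control (0.42 and 0.36) and lower in icKO (-0.87 and -0.30), each past the threshold.

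**Figure D4:**
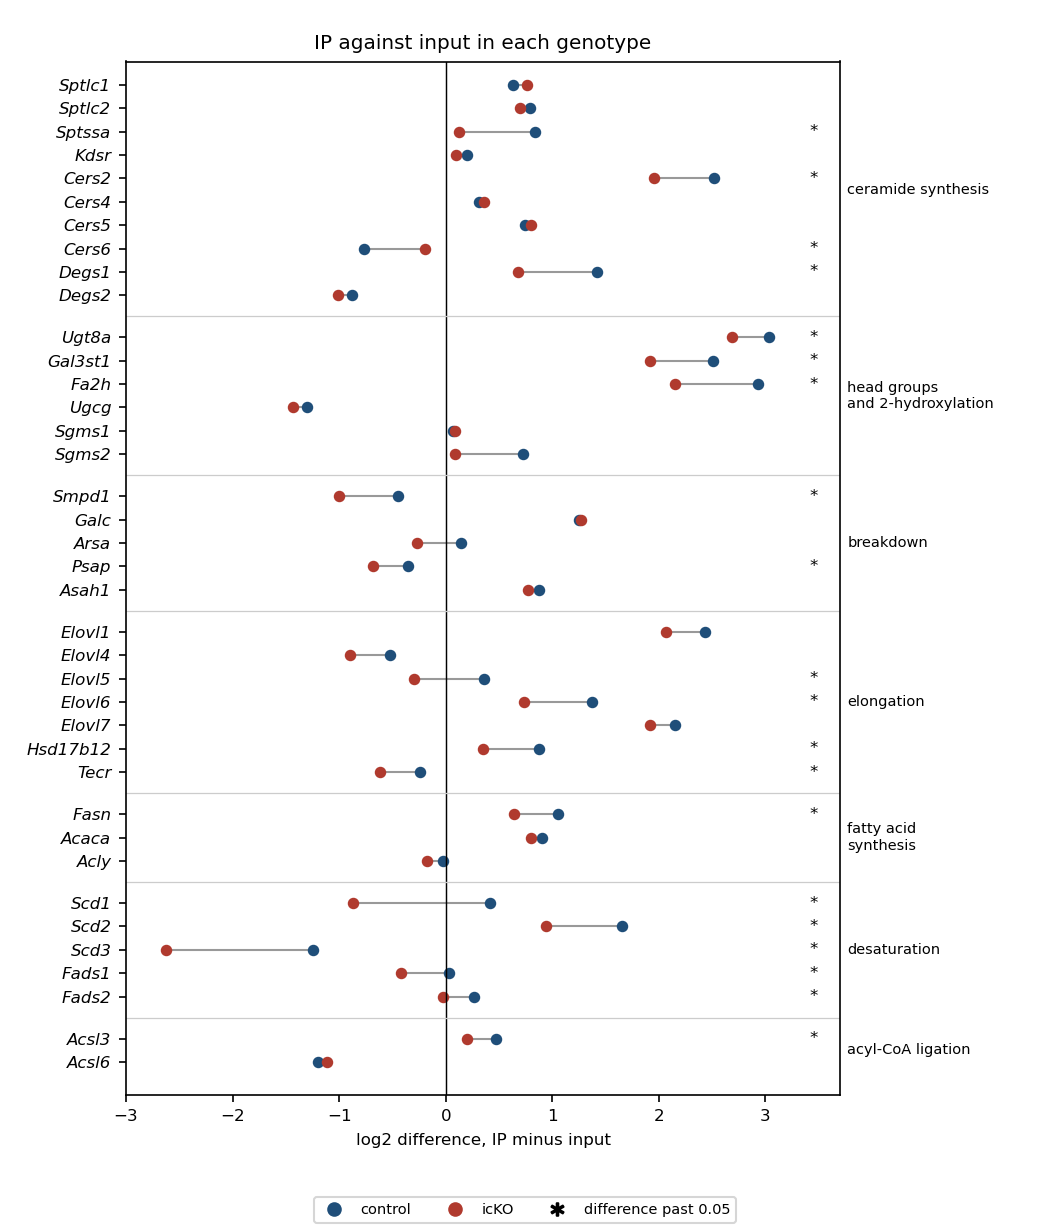
Log2 difference of IP over input for each gene, in control and in icKO, joined by a line, with a star where the interaction test has an adjusted p under 0.05. Scd1 crosses from 0.42 in control to -0.87 in icKO, and Ugt8a (from 3.03 to 2.68) stays farthest right.

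The inputs alone, 1 library per genotype, allow no test, and their log2 ratios are given with intervals for counting error only. Of the 38 genes, 1 was more than 1.5-fold higher in the icKO input and 0 more than 1.5-fold lower, against 4.39% and 4.32% of all genes. That gene was Scd3, chosen for its values here, with the control input at 6.15 CPM and the icKO input at 16.3 CPM, a log2 ratio of 1.39 (interval 1.11 to 1.71). The median over the 38 genes was 0.07, against 0.01 over all genes. The next highest were Scd1 (0.48, 0.41 to 0.55), Elovl5 (0.41, 0.30 to 0.52), Fasn (0.33, 0.29 to 0.38) and Elovl6 (0.32, 0.19 to 0.44), all genes of fatty acid synthesis, elongation or desaturation. Scd2 had 0.14. The galactolipid genes Ugt8a (-0.0012, -0.14 to 0.14), Fa2h (-0.07, -0.23 to 0.08) and Gal3st1 (0.07, -0.27 to 0.40) had intervals that include 0, as had Cers2 (0.02, -0.16 to 0.20) and Degs1 (0.07, -0.08 to 0.21).

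A test of whether the genotype difference in IP equals that in input called 20 of the 38 genes, 19 with the lower value in IP and Cers6 with the higher (14.1% and 10.3% of all genes, 24.5% in either direction). All 5 desaturation genes were among them, although the call of Fads2 was lost without control IP replicate 2 (adjusted p = 0.0609). The difference of differences for Scd1 was -1.29 ± 0.07 SE, adjusted p = 3.34e-15, with icKO above control in the inputs and below it in the IP. Scd2 had -0.72 ± 0.04 SE, adjusted p = 9.04e-16, from inputs that differed by 0.14 and IP libraries that differed by -0.57. Scd3 had -1.39 (adjusted p = 0.00227), with inputs that differed by 1.39 and an IP difference of 0.02. Fasn (-0.42, 8.18e-08), Elovl5 (-0.66, 8.73e-06) and Elovl6 (-0.64, 5.02e-06) also had opposite signs in input and IP. In the ceramide and galactolipid steps, Fa2h (-0.77), Degs1 (-0.74), Sptssa (-0.72), Gal3st1 (-0.59), Cers2 (-0.57) and Ugt8a (-0.34) were called, with input ratios near 0. The breakdown genes Galc and Asah1, with 0.01 and -0.10, did not pass the test. The call of Gal3st1 was lost without control IP replicate 1 (0.0686). With DESeq2, 15 of the 38 genes were called, none of them higher, and the calls lost were those of Cers6 (adjusted p = 0.0715), Sptssa (0.0988), Gal3st1 (0.118) and Fads2 (0.142), while Scd3 got no adjusted p there.

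**Figure D5:**
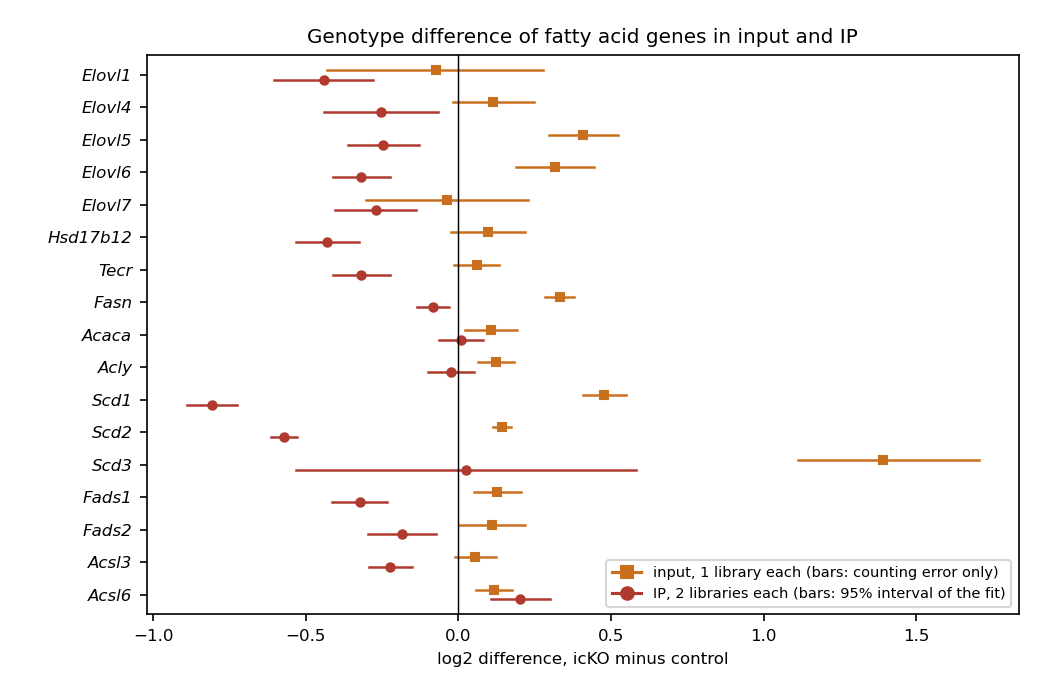
Log2 difference of icKO over control for the fatty acid genes, in the unreplicated inputs (bars for counting error) and in the IP (bars for 95% intervals). For Scd1 (0.48 in input, -0.81 in IP), Fasn (0.33, -0.08), Elovl5 (0.41, -0.25) and Elovl6 (0.32, -0.32) the 2 points lie on opposite sides of 0.

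Other genes of these pathways, 100 of 107 listed symbols in the file, give the setting. In the IP comparison 94 were tested, of which 35 fell and 10 rose, with a median of -0.14. The shares to set beside each count here are the 25.2% lower and 22.1% higher of all genes tested. Of 11 genes of sphingolipid synthesis and transport, 5 fell and 2 rose: Gltp, a glycolipid transfer protein, stood at 105 ± 1.42 CPM (SD, n = 2) in control IP and 67.4 ± 1.11 CPM (SD, n = 2) in icKO IP (-0.64 ± 0.05 SE, adjusted p = 1.11e-12), the transporter Abca2 fell by 0.51 and Plekha8 rose by 0.45. Of 23 breakdown genes, 7 fell, with Acer2 (-0.72), Sgpp1 (-0.56) and the ganglioside activator Gm2a (-0.54) moving most, and 3 rose. Of 5 sphingosine-1-phosphate receptors 2 fell, S1pr3 (-0.99) and the oligodendrocyte receptor S1pr5 (-0.45). Ganglioside synthesis, which branches from glucosylceramide, had 1 fall (St8sia1, -0.21) and 2 rises (St8sia5, 0.73, and St8sia3, 0.21) among 10 genes.

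Of 5 other genes of the elongation cycle, Elovl2 rose (0.77) and Hacd1 fell (-0.39). Among 16 genes of fatty acid synthesis and its regulators 8 fell and 1 rose. The sterol-sensing receptor gene Nr1h3 (-1.07) and the sterol feedback gene Insig1 (-0.54) fell, and Mlxipl, a carbohydrate-responsive factor, rose (0.68). Among 15 genes of fatty acid activation and transport 7 fell and 1 rose. The acyl-CoA binding protein gene Dbi stood at 188 ± 2.25 CPM (SD, n = 2) in control IP and 98.4 ± 3.63 CPM (SD, n = 2) in icKO IP (-0.93 ± 0.04 SE, adjusted p = 4.94e-19), and Fabp5 (-0.64) and Mfsd2a (-0.49) fell too. Of 9 genes of very long chain degradation 4 fell and 0 rose, among them Aldh3a2 (-0.32) and Abcd3 (-0.14).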

How the data were processed

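The authors deposited raw counts per gene for 6 libraries. Per the submitters' processing notes, Trimmomatic 0.39 and STAR 2.7.10b were used with build mm10; the counter, its annotation and its strand setting were not given in the sources used here. Libraries were made with a stranded total RNA pico input kit, per the labels' protocols. Of 24421 genes in the file, 10 without input values were left out. The 39 genes, the lists and the tests were chosen with earlier results of these data known. Differences were tested with edgeR 4.0.16 (R 4.3.3; TMM factors, filterByExpr, quasi-likelihood F test, two-sided, Benjamini-Hochberg adjustment over all genes tested, threshold 0.05). The genotype test used the 4 IP libraries (2 residual degrees of freedom, common biological variation 3.01%). IP against input used all 6 libraries with genotype as a term (3 residual degrees of freedom), and the interaction a fit of 4 groups (2). Standard errors are the log2 difference divided by the square root of F. Totals were 18968806 to 23930812 counts. Input ratios used a prior count of 2 and exact 95% intervals for counting error. Exon lengths and positions came from GENCODE M21 (23306 symbols, 95.5%, matched 1 gene model). Values per library are given, in each step, for every gene with an absolute log2 difference over 0.3 in the IP comparison and for the gene highest in IP. From each other list at most the 3 largest called differences are named. Replicate numbers carried no stated pairing. Counts of the 2 IP replicates differed by more than sampling noise allows (a chi-square of 2.19 in control and 2.11 in icKO for each degree of freedom). An exact permutation test of 2 against 2 cannot go below p = 0.333, so the tests rest on a spread shared across genes; p-values reflect only how these pools vary. Simulated data had 1 common spread for all genes, mean levels of the IP libraries and 200 changed genes. For the IP comparison (14910 genes), 57.1% of 1.25-fold and 75% of 1.5-fold changes were recovered there. For the interaction (14993 genes) the shares were 10% and 53.5%. The real spread differs by gene and far more genes were called, so these shares do not measure the power in these data. Alternatives were library totals, DESeq2 1.42.0, no filter, a filter of 5 CPM, leaving out each library, the replicate block, scaling to myelin genes or to markers of other cell types, and a transcript length offset added after seeing the data.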

Additional observations from a re-analysis of the deposited data

Results flagged for a closer look

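In 20 of the 38 genes the genotype difference in IP differed from the genotype difference in input by edgeR's interaction test with Benjamini-Hochberg adjustment. Of all genes tested, 24.5% were called (14.1% lower and 10.3% higher). The values below are log2 differences of differences, negative where IP had the lower genotype difference. In desaturation they were -1.39 for Scd3, -1.29 for Scd1, -0.72 for Scd2, -0.45 for Fads1 and -0.30 for Fads2. In ceramide synthesis they were -0.74 for Degs1, -0.72 for Sptssa, -0.57 for Cers2 and 0.57 for Cers6. The galactolipid genes had -0.77 for Fa2h, -0.59 for Gal3st1 and -0.34 for Ugt8a. In elongation the values were -0.66 for Elovl5, -0.64 for Elovl6, -0.53 for Hsd17b12 and -0.38 for Tecr. The remaining genes were Smpd1 (-0.55), Fasn (-0.42), Psap (-0.33) and Acsl3 (-0.28). Each rests on 1 input library per genotype, and the part that the lower mature oligodendrocyte and pericyte markers of icKO IP play in these values was not tested.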

How the results depend on the processing

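The cause of the differences listed here was not tested, apart from what each setting changes by construction. Scaling the IP libraries to 25 myelin genes moved most results: 12698 of 15069 genes were called, 125 lower and 12573 higher. Of the 38 genes, 2 were lower and 30 higher, with a median of 0.43 against 0.67 over all genes. The signs that turned were those of Sptlc1 (0.66), Sptlc2 (0.58), Kdsr (0.51), Cers2 (0.13), Cers5 (0.48), Degs2 (0.59), Ugt8a (0.32), Gal3st1 (0.14), Sgms1 (0.63), Sgms2 (0.31), Smpd1 (0.11), Galc (0.45), Arsa (0.53), Psap (0.32), Elovl1 (0.23), Elovl4 (0.42), Elovl5 (0.42), Elovl6 (0.35), Elovl7 (0.40), Hsd17b12 (0.24), Tecr (0.35), Fasn (0.59), Acly (0.65), Scd2 (0.097), Fads1 (0.35), Fads2 (0.48) and Acsl3 (0.45). Other signs that turned in the IP comparison belonged to genes not called in the main comparison: Ugcg (-0.075), Asah1 (-0.036), Acaca (-0.078) and Scd3 (-0.062) with library totals, where 67.4% of all calls were lower against 53.3%; Ugcg (-0.0053) and Acaca (-0.0084) without a filter; Ugcg (-0.044), Asah1 (-0.0040), Acaca (-0.046) and Scd3 (-0.030) on a scale of other cell types' markers; Sptlc1 (0.027) and Acly (0.0077) among genes of at least 5 CPM; and Sptlc1 (0.021), Ugcg (-0.021) and Acaca (-0.22) with the length offset, which left 1 gene higher. With library totals Elovl5 had -0.056 for IP against input, and in the interaction Cers4 had -0.024, Cers5 -0.015, Sgms1 -0.055 and Galc -0.060. DESeq2 called 1837 genes in the interaction, 0 of the 38 higher.

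Leaving out 1 library at a time gave 5905 to 6242 calls in the IP comparison (19 to 22 of the 38 lower, 2 to 3 higher), 10106 to 11076 for IP against input (19 to 25 higher, 8 to 11 lower) and 3530 to 3903 for the interaction (18 to 21 lower). Signs turned for Sptlc1 (-0.080 to 0.066), Degs2 (-0.37 to 0.25), Scd3 (-0.19 to 0.30), Ugcg (-0.098 to 0.11), Acaca (-0.028 to 0.038) and Acly (-0.079 to 0.029) in the IP comparison, Elovl5 (-0.30 to 0.36), Fads2 (-0.029 to 0.27), Arsa (-0.27 to 0.15), Scd1 (-0.87 to 0.42) and Fads1 (-0.43 to 0.033) for IP against input, and Degs2 (-0.43 to 0.19), Sgms1 (-0.017 to 0.056), Cers4 (-0.040 to 0.14), Galc (-0.023 to 0.046) and Cers5 (-0.070 to 0.18) in the interaction. For IP against input, leaving out the only input of a genotype leaves the value to the other genotype alone. Scd1 was thus 0.42 without the icKO input and -0.87 without the control input. These match its values within control (0.42) and within icKO (-0.87), so they show a genotype difference as well as any effect of an input library. Replicate numbers gave no sign of pairing (correlation of deviations -0.0094); with the replicate block 7277 genes were called, 23 of the 38 lower and 3 higher. Genes near 1 CPM such as Degs2, and the unreplicated inputs, limit what can be shown.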
